A study of Rattus norvegicus with 5 samples.

Results

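This report describes 9 genes that move bicarbonate, chloride and sodium across the epithelium of the rat small intestine, namely *Car2*, *Car4*, *Slc4a7*, *Slc4a4*, *Slc9a3*, *Slc26a3*, *Clca4*, *Cftr* and *Atp1b1*, under 1 month of calorie restriction (CR). Every probe set that the array annotation assigns to one of these gene symbols alone was taken, which gave 12 probe sets of 8 genes, among 15866 gene probe sets and 10411 named genes on the array. The genes were selected on their signals in the CR pools relative to the control pool, so those ratios are given as a description and without a test. *Cftr*, the chloride channel opened by cyclic AMP, had no probe set under its name in the annotation used and is not analysed here. RNA came from the small intestine of male Wistar rats, which were 6 weeks old at the start, were fed individually and were dissected after a 16 h fast. The groups were a control given all of the recorded daily intake, and 5, 10, 20 and 30% CR given less food by that share. Each group was 1 RNA pool of 5 rats on 1 Affymetrix array, so no level has a replicate and the spread between rats cannot be seen. Values are MAS5 signals, a linear measure of brightness in which the mismatch signal has been subtracted.

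Enterocytes absorb sodium and chloride through paired exchangers of the brush border, where *Slc9a3* (NHE3) trades sodium for protons and *Slc26a3* (DRA) trades chloride for bicarbonate. Carbonic anhydrases supply the protons and bicarbonate from carbon dioxide and water, *Car2* in the cytosol and *Car4* on the outer face of the apical membrane. Bicarbonate enters from the blood side through the sodium-bicarbonate cotransporters *Slc4a4* (NBCe1) and *Slc4a7* (NBCn1). The sodium pump, of which *Atp1b1* is a beta subunit, keeps cell sodium low for the transporters that carry sodium. *Clca4* encodes a protein of the family of calcium-activated chloride channel regulators. In the duodenum some of these proteins take part in the secretion of bicarbonate against gastric acid.

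Promoter sequences were held by the RefSeq table (build GRCr8) for 5 of the 8 measured genes. Shown are those of *Clca4* and *Car4*, which lay past the size threshold used below in opposite directions, and of the brush border pair *Slc9a3* and *Slc26a3*. Each runs 5′ to 3′ on the strand of the gene, from 250 bases before the annotated start to 50 bases from it. They lie at chr2:236565047-236565346 (minus strand), chr10:70325108-70325407 (plus), chr1:30995953-30996252 (minus) and chr6:53751165-53751464 (plus). Capitals mark exact matches, on either strand, to TATAAA (a core promoter element), to GGGCGG (the Sp1 box), to CACGTG (the E-box), to TTTAT (the core of the CDX site), to TTATGTAA (the D-box) and to CCAAT. The reverse of TATAAA contains TTTAT, so each match to the first is also one to the other.
Clca4: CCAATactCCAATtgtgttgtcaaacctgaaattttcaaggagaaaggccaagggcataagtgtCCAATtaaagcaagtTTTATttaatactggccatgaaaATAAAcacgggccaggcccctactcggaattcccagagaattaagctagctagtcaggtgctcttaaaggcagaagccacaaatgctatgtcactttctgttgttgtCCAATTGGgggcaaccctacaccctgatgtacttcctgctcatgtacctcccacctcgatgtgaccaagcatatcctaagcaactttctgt
Car4: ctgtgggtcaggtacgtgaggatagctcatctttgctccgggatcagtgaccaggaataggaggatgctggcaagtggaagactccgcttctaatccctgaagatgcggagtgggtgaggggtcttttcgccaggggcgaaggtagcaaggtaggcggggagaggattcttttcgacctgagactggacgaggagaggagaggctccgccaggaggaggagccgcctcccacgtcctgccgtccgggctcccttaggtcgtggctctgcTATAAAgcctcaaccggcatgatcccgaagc
Slc9a3: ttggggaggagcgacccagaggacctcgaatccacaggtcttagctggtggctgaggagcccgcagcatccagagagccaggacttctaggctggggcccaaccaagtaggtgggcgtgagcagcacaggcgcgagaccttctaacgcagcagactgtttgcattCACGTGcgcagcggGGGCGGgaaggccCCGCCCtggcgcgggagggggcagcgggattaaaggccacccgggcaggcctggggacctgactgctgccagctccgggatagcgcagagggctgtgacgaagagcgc
Slc26a3: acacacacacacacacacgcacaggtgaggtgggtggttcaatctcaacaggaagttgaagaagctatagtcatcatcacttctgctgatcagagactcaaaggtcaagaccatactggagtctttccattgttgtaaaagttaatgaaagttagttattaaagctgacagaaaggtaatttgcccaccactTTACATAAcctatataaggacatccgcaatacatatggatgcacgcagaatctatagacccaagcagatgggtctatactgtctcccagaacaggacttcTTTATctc
The *Clca4* window held 5 CCAAT matches, 2 of which overlap on opposite strands, and 2 TTTAT matches. The *Car4* window held TATAAA with its overlapping TTTAT, the *Slc9a3* window held 2 Sp1 boxes and an E-box, and the *Slc26a3* window held a D-box and a TTTAT. The TATAAA of *Car4* (from base 20) and the TTTAT of *Slc26a3* (from base 43) lay after the annotated start and not before it. Of all 33469 promoters of the same length, 37.5% held CCAAT, 42.5% held TTTAT and 14.2% held TATAAA. The Sp1 box was in 33.1%, the E-box in 6.42% and the D-box in 0.893%. A match is a description of the letters and not a binding site. GC content was 44.3% for *Clca4*, 59.7% for *Car4*, 66.7% for *Slc9a3* and 41.7% for *Slc26a3*, with a median of 51.7% over all promoters.

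The arrays were scaled to a common trimmed mean of 132, had medians between 45 and 49.1 and correlated at 0.931 to 0.952. Markers of absorptive enterocytes were bright in every pool, and the ileal markers *Fabp6* and *Slc10a2* had signals of at most 24 on any array. The 5 proximal intestine markers summed to 2305.8 in the control pool and to 2252.5, 1843.2, 2112.5 and 1928.2 at 5, 10, 20 and 30% CR. The 4 measured ileum and colon markers, 0 of them past the signal filter described below, summed to 48.5 in the control pool. At the 4 levels they summed to 103, 76, 73.6 and 50.9. Whether the pools differed in the stretch of gut taken was not tested. For beta-actin, the 3′ end signal divided by that of the 5′ end, which grows as RNA is broken, was 3.18 at 20% CR and 2.20 to 2.41 on the other arrays. The same ratio for GAPDH did not set 20% CR apart. It was 1.27 there, 1.40 in the control pool and 1.21 to 1.37 on the other CR arrays. Markers of exocrine pancreas stood apart on the control array. Of the 7 on the array, 6 were brighter there than in every CR pool, but none of these 6 passed the signal filter described below. The remaining one, *Cela1*, passed it, with 214.5 in the control pool and 149.5 to 245.8 in the CR pools. Without *Cela1*, which was left out after its values were seen, the other 6 summed to 522 in the control pool and to 196, 75.1, 85.5 and 69.4 at 5, 10, 20 and 30% CR. The brightest of them was trypsinogen *Prss1*, with 174 in the control pool and 71.2, 2.4, 24.9 and 18.5 at the 4 levels. Pancreatic ducts, which secrete bicarbonate, also express *Car2*, *Slc4a4* and *Cftr*. The part of pancreatic RNA in the ratios below was not tested.

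**Figure D1:**
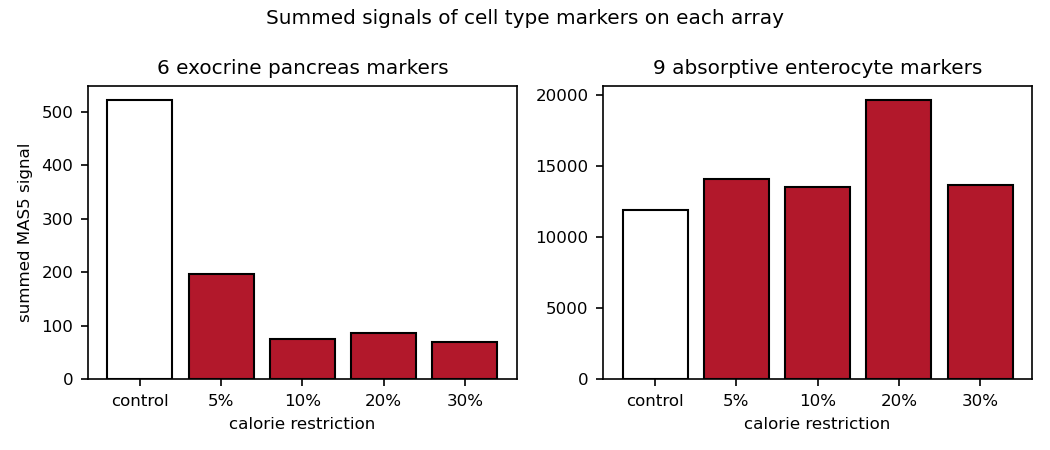
Summed MAS5 signals of 6 exocrine pancreas markers (left, without *Cela1*) and 9 absorptive enterocyte markers (right) on each array, 1 pool of 5 rats per bar, white for control and red for CR. The pancreas sum was 522 in the control pool and at most 196 in a CR pool, and the enterocyte sum was 11891 in the control pool and 19628 at 20% CR.

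*Slc4a7*, *Clca4*, *Car2*, *Slc4a4* and *Slc9a3* were lower in all 4 CR pools than in the control pool at 1 probe set or more. *Car4* was higher in all 4. At the brighter probe set of *Slc4a7* and of *Slc4a4* the control lay within the CR range. Taking all 4 levels together, a log2 ratio past 0.5 with the same sign at each was reached by 3 of the 12 probe sets downward (*Car2*, *Slc4a7* and *Clca4*) and by 1 upward (*Car4*). Over all 7933 probe sets past the signal filter, 0.34% were lower and 0.769% higher by this rule. The rule shares its contrast with the choice of genes, so nothing is read from the difference. The control signal lay above all CR signals for 6 of the 12 (20.6% of all kept probe sets), below all for 1 (19%) and within their range for 5. The median over the 12 probe sets of the mean log2 ratio was −0.30, with −0.25, −0.58, −0.33 and −0.19 at 5, 10, 20 and 30% CR, beside −0.006 over all kept probe sets. In bulk tissue, fewer cells of a type and less RNA per cell cannot be told apart, and all 4 ratios share the 1 control array. All 12 probe sets passed the filter, a mean log2 signal at or above the median of 5.54 (a signal of 46.5).

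**Figure D2:**
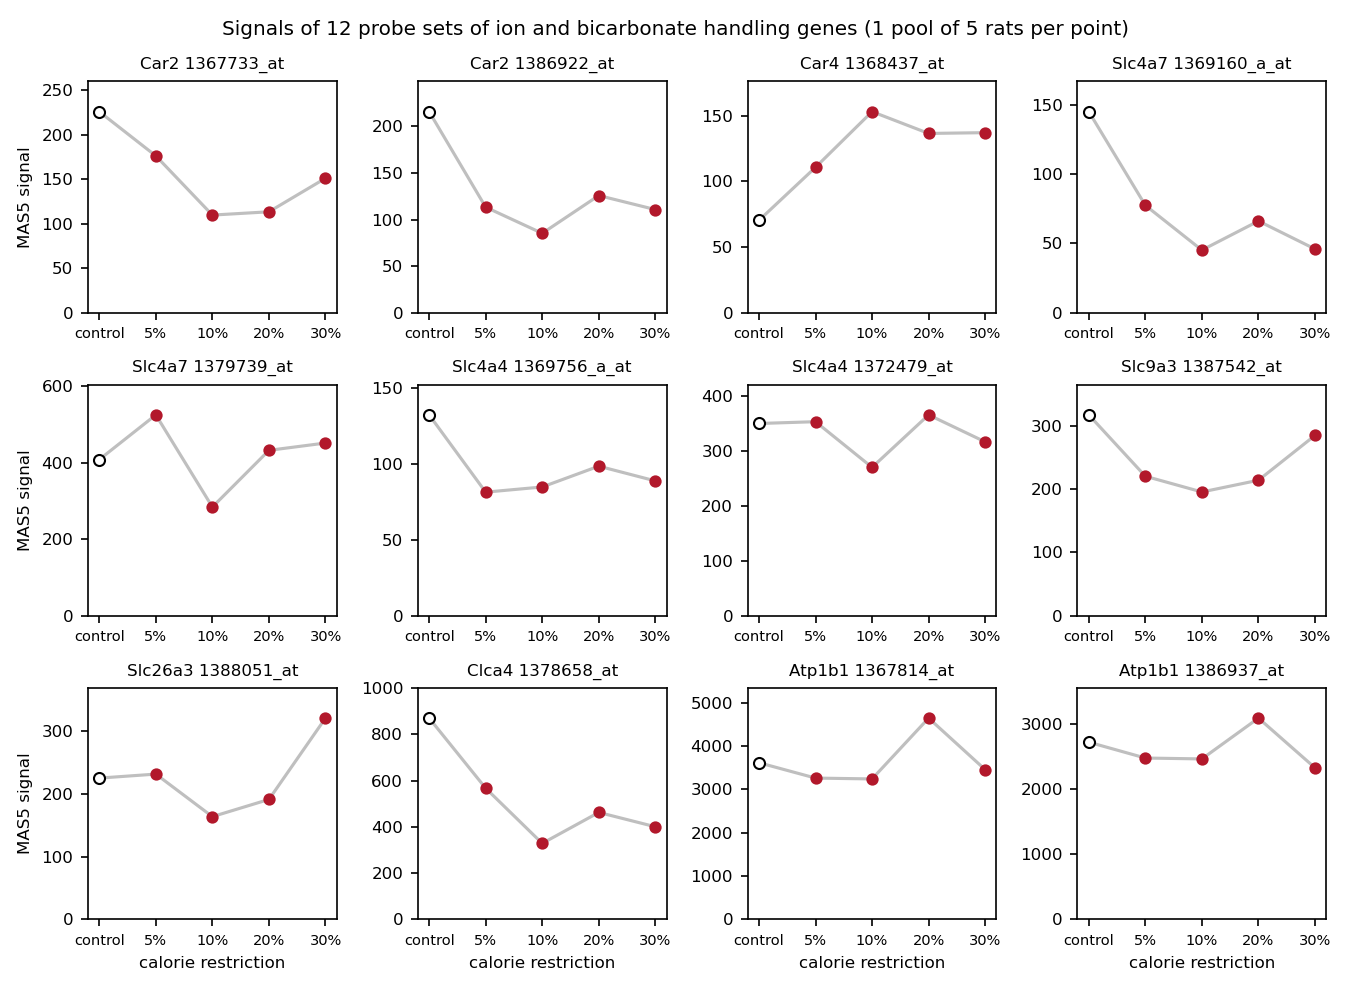
MAS5 signal (linear, from 0) of the 12 probe sets in the control pool (white) and at 5, 10, 20 and 30% CR (red), 1 pool of 5 rats per point, with the levels evenly spaced. The control point is the highest in both *Car2* panels, *Clca4*, *Slc9a3* and the panels of *Slc4a7* 1369160_a_at and *Slc4a4* 1369756_a_at, and the lowest in *Car4*.

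*Car2* was lower in the CR pools at both of its probe sets, which the annotation ties to the same transcript record. At 1367733_at the signal was 226 in the control pool and 176, 109.6, 113 and 151 at 5, 10, 20 and 30% CR. At 1386922_at it was 216 in the control pool and 113, 85.2, 126 and 111 at these levels. The control pool was the highest on both, without overlap, and the 10% CR pool the lowest. The geometric mean level in the CR pools was 0.597 of the control at 1367733_at and 0.499 at 1386922_at, with an SD over the 4 levels of 0.33 and 0.24 on the log2 scale. The first probe set missed the size threshold at 5% CR, with a log2 ratio of −0.36. Red cells also hold *Car2*. The 4 measured blood markers summed to 568 in the control pool and to 455, 597, 489 and 343 at the 4 levels, most of it from the beta-globin *Hbb*. Of the 4, *Hbb* and *Car1* had the control within the CR range. *Alas2*, with 3.4 to 11.8 in the CR pools and 21.6 in the control pool, and *Slc4a1*, with 18.6 to 26.2 in the CR pools and 26.5 in the control pool, had it above all CR pools, at signals under the filter level. The part of blood in the *Car2* ratios was not tested.

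*Car4*, the membrane-bound carbonic anhydrase, ran the opposite way. Its signal was 70.3 in the control pool and 111, 153, 136.5 and 137 at 5, 10, 20 and 30% CR. Every CR pool was above the control, and the 10% CR pool was the highest where *Car2* was lowest. The mean log2 ratio was 0.92 ± 0.20 (SD over the 4 levels), a 1.90-fold level. It exceeded 1 only at 10% CR (1.12), where 0.454% of all kept probe sets were higher by as much.

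*Slc4a7* was lower at one probe set and not at the other. At 1369160_a_at, a type of probe set that reads several transcripts of a gene, the signal was 145 in the control pool and 77.4, 45.1, 66.1 and 45.9 at 5, 10, 20 and 30% CR. The control pool was well above the others, and 10 and 30% CR were lowest and nearly equal. The mean log2 ratio was −1.35 ± 0.39, or 0.393 of the control. The signals at 10 and 30% CR lay just below the filter level of 46.5. At 1379739_at, the brighter probe set, the signal was 409 in the control pool and 525, 284.5, 433 and 452 at the 4 levels. There the control lay within the CR range, only 10% CR was below it, and the mean log2 ratio was 0.02 ± 0.38. The log2 ratios of the 2 probe sets differed by 1.16 to 1.80 at every level, and the mean over them is not given. Which transcripts each reads was not examined.

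*Slc4a4*, the electrogenic cotransporter of the basolateral membrane, showed the same division in a smaller size. At 1369756_a_at the signal was 132 in the control pool and 81.5, 84.9, 98.6 and 88.9 at 5, 10, 20 and 30% CR. All 4 CR pools were close to each other and below the control, with a mean log2 ratio of −0.59 ± 0.12. At 1372479_at, again the brighter one, it was 350 in the control pool and 353, 270.2, 366 and 317 at the 4 levels. The control lay within that range, with a mean log2 ratio of −0.11 ± 0.20.

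**Figure D3:**
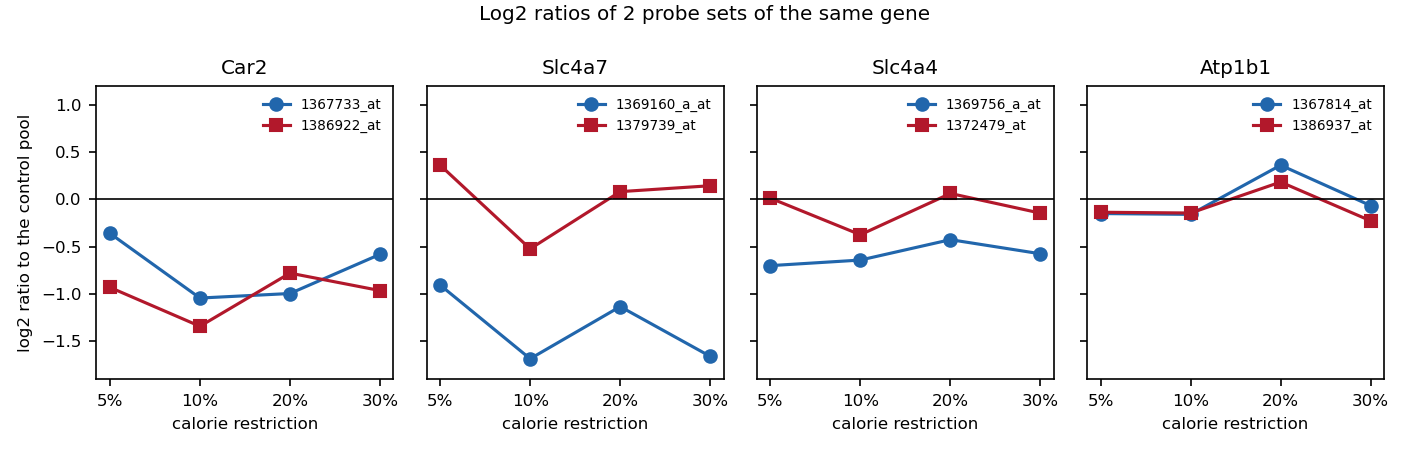
Log2 ratio to the control pool (vertical axis) at 5, 10, 20 and 30% CR for the 4 genes with 2 probe sets, 1 line per probe set and 1 array per point. The lines are 1.16 to 1.80 apart for *Slc4a7*, 0.27 to 0.71 for *Slc4a4*, 0.22 to 0.57 for *Car2* (crossing at 20% CR) and at most 0.18 for *Atp1b1*.

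*Clca4* had a signal of 871 in the control pool and 567, 328, 462 and 400.1 at 5, 10, 20 and 30% CR. The control was the highest and 10% CR the lowest, and the mean log2 ratio was −1.02 ± 0.33, or 0.494 of the control. Its order over the 5 arrays was that of *Slc4a7* 1369160_a_at, with the control first, then 5, 20, 30 and 10% CR. Among 906 probe sets with 1 gene name and an SD over the arrays of at least 0.3, this one of *Slc4a7* was most like *Clca4*. It had a Pearson r of 0.981 over 5 arrays, followed by *Elmo3* (0.977) and *Vnn1* (0.964). The brighter probe set of *Slc4a7* had 0.464 with *Clca4*. *Clca4* and *Slc4a7* were chosen on their ratios to the control pool, 1 of the 5 arrays, so nothing is read from their likeness. For *Car2* at its brighter probe set, *Bloc1s6* (0.971), *Kdm2a* (0.963) and *Slco3a1* (0.947) were most alike of 905. The other probe set of *Car2*, left out of this ranking, had 0.780. With 5 arrays such values are a description. *Clca1*, a product of goblet cells from the same family, had 4187 in the control pool and 3996, 4188, 4097 and 3678 at the 4 levels, within 0.19 of the control on the log2 scale.

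The exchangers of the brush border were both lowest at 10% CR and highest at 30% CR among the CR pools, but lay differently to the control. *Slc9a3* had 317 in the control pool and 220.2, 195, 214 and 285 at 5, 10, 20 and 30% CR. It was below the control at every level, with log2 ratios of −0.53, −0.70 and −0.57 at the first 3 levels and −0.16 at 30% CR (mean −0.49 ± 0.23). *Slc26a3* had 225 in the control pool and 232, 164, 191 and 321 at these levels. It was above the control at 5 and 30% CR and below it at 10 and 20% CR, with log2 ratios of 0.04, −0.46, −0.24 and 0.51. Its mean of −0.04 ± 0.42 therefore hides values of both signs.

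*Atp1b1* lay near the control on both of its probe sets. Its signal at 1367814_at was 3616 in the control pool and 3261, 3241, 4648 and 3456 at 5, 10, 20 and 30% CR. At 1386937_at it was 2719 in the control pool and 2475, 2462, 3089 and 2325. On both probe sets 20% CR was the highest array and the other CR pools were below the control. The mean log2 ratios were −0.002 ± 0.25 and −0.08 ± 0.18. The 20% CR array also had the highest beta-actin ratio (3.18), though not the highest GAPDH ratio (1.27). It had the highest sum of 9 enterocyte markers, 19628 against 13515 to 14073 on the other CR arrays and 11891 in the control pool. Of these 9 markers, 9 were highest at 20% CR among the CR pools. The part of either in *Atp1b1* was not tested.

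**Figure D4:**
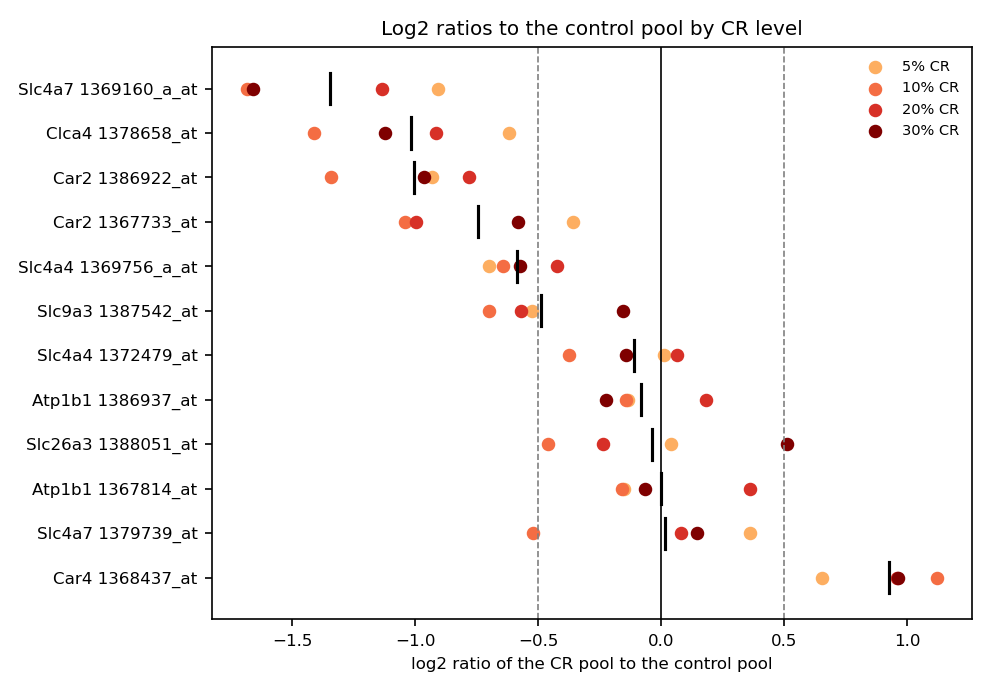
Log2 ratio of each CR pool to the control pool for the 12 probe sets, ordered by their mean (black bar), 1 array per point and darker colours for higher levels, with dashed lines at 0.5 in both directions. All 4 points lie below −0.5 for *Slc4a7* 1369160_a_at, *Clca4* and *Car2* 1386922_at and above 0.5 for *Car4*, where the 20% CR point is hidden by the one at 30% CR.

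Among the CR pools alone, which leaves the control array out, the signals were not ordered by the level of restriction. The pool at 10% CR had the lowest of the 4 CR signals for 9 of the 12 probe sets, the exceptions being *Car4*, *Slc4a4* 1369756_a_at and *Atp1b1* 1386937_at. At 5, 20 and 30% CR the lowest signal lay for 2, 0 and 1 of the 12. Over all kept probe sets, 5, 10, 20 and 30% CR were the lowest for 18, 22.5, 35.2 and 24.4%. The highest CR signal lay at these levels for 4, 1, 5 and 2 of the 12, beside 18.9, 27.8, 26.9 and 26.4% of all. The count at 10% CR was made after the values were seen. The 12 probe sets are of 8 genes. Their choice used the same CR signals, so nothing is read from these counts. For *Atp1b1* 1367814_at the 10% CR signal (3241) was hardly below that at 5% CR (3261). Of 7 smooth muscle markers, 6 were highest at 10% CR among the CR pools, with a sum of 10742 there, 7677 to 9002 in the other CR pools and 9675 in the control pool. The part of muscle in the sample was not tested. Against the control pool again, a log2 ratio of at least 1 downward was reached by 0 of the 12 probe sets at 5% CR. It was reached by 4 at 10% CR, both of *Car2* among them, 1 at 20% CR and 2 at 30% CR. Of all kept probe sets, 0.214, 0.214, 0.63 and 0.34% were lower by as much at the 4 levels. A ratio of at least 1 upward was reached by *Car4* at 10% CR alone. The shares of all kept probe sets at the 4 levels were 0.366, 0.454, 0.504 and 0.744%. These ratios share their contrast with the choice of genes, so nothing is read from the differences. A linear slope over the 4 CR pools was fitted with limma across all kept probe sets. Of the 12, the largest slope upward was that of *Slc26a3*, 0.23 ± 0.13 (log2 per 10% restriction, standard error), followed by *Slc9a3* with 0.16 ± 0.09. The largest downward was that of *Slc4a7* 1369160_a_at, −0.17 ± 0.16. All 12 had an adjusted p = 0.9998 in limma, and 0 of 7933 probe sets passed in either direction (0%), with 33 (0.416%) sloping upward and 44 (0.555%) downward at an unadjusted p below 0.05. With 2 residual degrees of freedom this does not show that levels act alike.

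Other genes of ion and water transport were taken from lists of 120 genes, of which 94 were on the array and 46 passed the signal filter, each at its brightest probe set. Of these 46, 28 had a positive and 18 a negative log2 ratio when averaged over the 4 levels, with a median of 0.04. Of all 7933 kept probe sets, 3894 were positive and 4039 negative, with a median of −0.006. By the rule of 0.5 at all levels, 1 of the 46 was higher and 0 were lower, beside 0.769% and 0.34% of all. In the limma comparison of CR with control, 0 of the 46 and 0 of all 7933 (0%) passed an adjusted p of 0.05 in either direction. At an unadjusted p below 0.05 there were 3 higher and 1 lower of the 46, beside 215 higher (2.71%) and 163 lower (2.05%) of all.

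The gene past the size rule was *Sgk1*, a kinase that raises sodium channel and exchanger activity, with 138 in the control pool and 287, 286, 522 and 307 at 5, 10, 20 and 30% CR (mean log2 ratio 1.30). Of 7 measured genes of the epithelial sodium channel and aldosterone axis, 5 had a positive mean ratio. *Hsd11b2*, which inactivates glucocorticoids, had 0.67, with 41.1 in the control pool and 85.3, 88.8, 41 and 59.1 at the 4 levels. *Nr3c1*, the glucocorticoid receptor, had 0.56, though a weak second probe set of *Nr3c1* had −1.36. The 3 subunits of the channel itself (*Scnn1a*, *Scnn1b* and *Scnn1g*) were all below the filter. Of the scaffolds that hold *Slc9a3* in the brush border, *Pdzk1* and *Nherf1* did not share its direction. *Pdzk1* had 188 in the control pool and 314, 271, 426 and 197 at the 4 levels (mean 0.63), and *Nherf1* had 541 in the control pool and 739, 664, 915 and 718.5 (mean 0.48). Both were above the control in every CR pool and highest at 20% CR, the array with the brightest enterocyte markers. The scaffold *Nherf2* had a mean of 0.20 with the control within the CR range, and −0.41 at a second probe set below the filter. *Slc9a2*, an exchanger related to *Slc9a3*, had a mean of −0.22.

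Of the other carbonic anhydrases, only *Car8* of 10 on the array passed the filter, with a mean log2 ratio of 0.04, and *Slc4a2*, the basolateral anion exchanger, was the 1 of 7 other anion transporters, with −0.19. Among 10 measured chloride channel and cotransporter genes, 6 were positive and 4 negative, the largest being *Clic5* (0.30), *Ano6* (0.18) and *Clns1a* (−0.12). *Slc12a2*, which loads chloride into secreting crypt cells, had 0.02. *Atp1b3*, another beta subunit of the sodium pump, had −0.13, and the pump modulators *Fxyd2* and *Fxyd3* had 0.42 and 0.13. Of the potassium channels that recycle potassium during secretion, *Kcne3* had 0.42, *Kcnq1* 0.26, *Kcnk5* 0.15 and *Kcnn4* −0.02. *Aqp1*, a water channel of vessels, had −0.48, and *Aqp4* had 0.11 at its one probe set past the filter and negative values at the weak ones. Of 10 genes of guanylin and cyclic nucleotide signalling, 3 were positive and 7 negative. The kinase subunits *Prkar1a* and *Prkaca* had −0.46 and −0.40, with −0.04 and 0.03 at the other 2 probe sets of *Prkar1a*, and the peptide *Guca2b*, a stimulant of chloride and bicarbonate secretion, had 0.32.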

How the data were processed

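The deposited table held 1 MAS5 signal (intensity, linear scale) per probe set for each of 5 pools of small intestine RNA. The authors made it with the Affymetrix GeneChip Operating Software, and its values have the same mean on every array once the lowest and highest 2% are left out. To which target they were scaled is not given here, and detection and change calls are not analysed here. Weak signals, from which the mismatch signal has been subtracted, give unsteady ratios, and equal array means hide any difference in total RNA. The number of arrays, 1 per level, limits the precision.

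Before the log2 step, signals under 0.1 were set to 0.1. Apart from RNA quality, the 57 control probe sets of the array had no use. Among 15866 gene probe sets, a single gene is named for 12783, more than 1 for 312 and no usable one for 2771, and 0 symbols changed in the current rat gene table. The 7933 at or above the median mean log2 signal were kept. The difference between CR and control was fitted, and a slope over restriction percent was fitted among the CR pools, with limma 3.58.1 in R 4.3.3 (lmFit and eBayes, whose prior follows the mean signal). Tests were two-sided, and p-values were adjusted by Benjamini-Hochberg across the 7933 probe sets with a threshold of 0.05. These fits have 3 and 2 residual degrees of freedom, and the first assumes that the control pool varies like the CR pools. Pools are not separate rats, so p-values measure only the spread among pools. The fits were tested on simulated data. The genes and lists were chosen with earlier results of these data known. The genes named were every member, up to 3 per related list with the largest mean ratio, and the 3 probe sets most like *Car2* and *Clca4* over the 5 arrays. *Clca1*, *Slc12a2*, *Kcnn4*, *Nherf2*, the *Scnn1* genes and the markers with values were named after these were seen. Tried as alternatives were median centring, quantile normalization, a constant of 13 (near the lower quartile of all signals) added before log2, no filter or a stricter one, other size thresholds, other fit settings and each CR pool left out. Sequences came from RefSeq tables.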

Additional observations from a re-analysis of the deposited data

How the results depend on the processing

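The 4 probe sets past 0.5 at all levels stayed 4 (1 higher and 3 lower) after quantile normalization, median centring, an added constant and without the filter. They were 1 with the stricter filter, which keeps only 8 of the 12 probe sets, and 0 at a size of 1. Fewer levels make the rule easier to meet, so *Car2* 1367733_at joined without 5% CR, *Slc4a4* 1369756_a_at without 20% CR and *Slc9a3* without 30% CR, each giving 5. The median of the mean ratios was −0.30 and moved to −0.10 with the stricter filter, since fewer probe sets entered it. Of 104 mean ratios of single probe sets recomputed, 104 moved by less than their SD over the levels. This could fail only after quantile normalization, median centring or the added constant. A change of filter leaves the ratio of a probe set as it is. Leaving out 1 of 4 levels cannot move a mean by its SD over the levels. The mean ratios of *Slc26a3*, *Atp1b1* 1367814_at and *Slc4a7* 1379739_at, all near 0, changed sign when single pools were left out. The count of probe sets lowest at 10% CR was 9 of 12 after quantile normalization, with the added constant and without the filter, 10 of 12 after median centring and 7 of 8 with the stricter filter, and was not made with a pool left out.

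Over all probe sets, 88 were past 0.5 at all levels. There were 57 with the added constant, 1136 without the filter, 22 with the stricter filter, 11 at a size of 1 and 108 to 164 with a pool left out (164 without 10% and 162 without 20% CR). Past 1 at 1 level or more were 194, with 89 with the added constant, 5025 without the filter, 39 with the stricter filter and 2084 at a size of 0.5. The limma comparison with the control called 0 to 3 probe sets with a pool left out (3 without 30% CR), and the slope 0 to 2 (2 without 5% and 2 without 30% CR). No paired analysis was possible because each pool holds different rats and received a single diet. With 1 array per level, none of the ratios has a replicate check.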
